A study of Mus musculus with 18 samples.

Results

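The genes of 7 enzymes that remove methyl groups from lysine 9 of histone H3 (H3K9) were examined in a list of accessible chromatin from mouse embryonic stem cells: Kdm4a, Kdm4b, Kdm4c, Kdm4d, Kdm3a, Kdm3b and Kdm1a. They were chosen by name. Their peaks were all merged ATAC-seq peaks over the gene or within 50 kb of either annotated end, which gave 132 of the 166066 peaks in the list. ATAC-seq marks open DNA by the insertion of sequencing adapters with a transposase. The study followed cells at 0, 3, 6, 12, 24 and 48 h after auxin (100 µg/ml) and dTAG13 (0.5 µM), which trigger breakdown of suitably tagged proteins, sampled as 3 libraries at each time (18 in total). All groups, the 0 h baseline included, carried the same genotype in the line named dTKO: Suv39h1 fl/fl, Suv39h2-/- and Setdb1 fl/fl, so every library lacked Suv39h2. Which proteins were tagged, and whether the line is 1 clone, is not stated in the labels.

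The list merges all libraries and gives positions only, without a library, count, height or score. Change after 0 h was therefore not analysed here, the depth is not known, and the values carry no replicate error. An order among members is an order within this 1 list. All 7 stem cell marker genes listed for this check, Pou5f1, Nanog and Sox2 among them, had a peak within 500 bp of an annotated end. Over all protein-coding genes the share was 71.4%. Of markers of other cells, 3 of 6 fibroblast, 4 of 5 primitive endoderm, 5 of 5 trophoblast and 2 of 4 blood genes had one, so an open end alone did not single out the labelled cell type.

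Methylation of H3K9 is laid down by enzymes such as Suv39h1 and Setdb1 and bound by HP1 proteins in heterochromatin, and the demethylases take it off again. Those of the Kdm4 and Kdm3 families carry a JmjC domain that uses iron and 2-oxoglutarate. Kdm4a, Kdm4b and Kdm4c act on trimethylated and dimethylated H3K9 and also on lysine 36 of H3. Kdm4d, a shorter enzyme known for its expression in testis, acts on H3K9, and Kdm3a and Kdm3b take off the dimethyl and monomethyl marks. Kdm1a (LSD1) is instead an FAD-dependent amine oxidase of the CoREST complex, best known for acting on lysine 4 of H3 and reported to act on H3K9 as well. In mouse embryonic stem cells Kdm3a and Kdm4c are known as genes controlled by Oct4, and Kdm3a is known from human cells as a gene induced by low oxygen.

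The promoter windows that the results turn on are shown first, because they separate an open start from a closed one within 1 gene. Open here means with a peak of the merged list and closed means without one. Accessibility below the peak threshold, which is not known, cannot be seen in the list. Each window runs from 250 bases before to 50 after a RefSeq start (GRCm38.p6), and 8 windows were held for 5 of the members. Capitals mark matches to 10 short motifs that were searched on both strands. Kdm4c has 2 windows, Kdm3a 3, and Kdm4a, Kdm4d and Kdm1a 1 each. Kdm4b and Kdm3b have no entry. The Kdm3a window of start 2 overlaps that of start 1 and is not printed.
Kdm4c, start 1, chr4:74242247-74242546, plus strand: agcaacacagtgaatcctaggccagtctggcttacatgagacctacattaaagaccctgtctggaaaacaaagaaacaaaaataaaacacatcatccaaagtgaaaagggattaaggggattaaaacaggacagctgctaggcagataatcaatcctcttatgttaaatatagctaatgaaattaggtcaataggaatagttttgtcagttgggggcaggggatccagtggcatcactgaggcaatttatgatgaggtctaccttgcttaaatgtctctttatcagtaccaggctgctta
Kdm4c, start 2, chr4:74251629-74251928, plus strand: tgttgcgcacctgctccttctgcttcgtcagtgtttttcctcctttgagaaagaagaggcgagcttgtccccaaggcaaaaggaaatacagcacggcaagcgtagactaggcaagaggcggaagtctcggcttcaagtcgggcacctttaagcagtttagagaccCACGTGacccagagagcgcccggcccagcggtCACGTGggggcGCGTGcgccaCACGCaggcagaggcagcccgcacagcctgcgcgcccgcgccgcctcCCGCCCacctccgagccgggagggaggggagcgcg
Kdm3a, start 1, chr6:71632868-71633167, minus strand: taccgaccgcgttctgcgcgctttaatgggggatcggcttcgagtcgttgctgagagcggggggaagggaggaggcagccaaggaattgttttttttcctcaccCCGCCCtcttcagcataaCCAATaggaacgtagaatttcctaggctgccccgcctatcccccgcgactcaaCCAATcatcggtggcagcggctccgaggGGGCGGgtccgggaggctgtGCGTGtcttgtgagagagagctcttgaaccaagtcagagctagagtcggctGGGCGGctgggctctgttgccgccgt
Kdm3a, start 3, chr6:71609090-71609389, minus strand: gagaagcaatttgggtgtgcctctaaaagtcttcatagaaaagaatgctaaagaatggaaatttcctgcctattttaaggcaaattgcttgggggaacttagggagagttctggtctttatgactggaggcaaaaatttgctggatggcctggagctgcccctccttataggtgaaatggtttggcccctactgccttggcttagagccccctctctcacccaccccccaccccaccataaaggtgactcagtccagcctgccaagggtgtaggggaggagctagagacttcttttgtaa
Kdm4d, chr9:14500433-14500732, minus strand: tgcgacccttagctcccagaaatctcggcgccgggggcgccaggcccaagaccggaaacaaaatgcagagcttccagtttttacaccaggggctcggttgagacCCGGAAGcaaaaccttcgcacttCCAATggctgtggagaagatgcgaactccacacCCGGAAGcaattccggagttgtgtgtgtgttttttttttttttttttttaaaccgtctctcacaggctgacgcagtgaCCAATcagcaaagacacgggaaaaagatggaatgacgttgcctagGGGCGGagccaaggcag
Kdm4a, chr4:118179994-118180293, minus strand: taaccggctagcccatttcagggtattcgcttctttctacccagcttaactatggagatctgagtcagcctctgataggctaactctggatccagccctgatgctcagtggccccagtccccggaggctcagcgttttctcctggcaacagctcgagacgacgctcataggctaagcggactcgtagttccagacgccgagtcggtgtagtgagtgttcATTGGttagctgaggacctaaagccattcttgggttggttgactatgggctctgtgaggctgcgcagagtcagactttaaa
Kdm1a, chr4:136602674-136602973, minus strand: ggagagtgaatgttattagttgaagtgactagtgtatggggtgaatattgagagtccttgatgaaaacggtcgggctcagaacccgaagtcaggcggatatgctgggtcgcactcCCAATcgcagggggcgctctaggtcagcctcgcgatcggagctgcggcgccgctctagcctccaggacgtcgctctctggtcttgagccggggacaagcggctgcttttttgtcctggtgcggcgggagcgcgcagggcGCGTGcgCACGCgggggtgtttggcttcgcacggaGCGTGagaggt

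Open chromatin lay over an annotated end in 6 of the 7 genes, Kdm4c being the one without. Across all 21774 protein-coding genes 71.4% had a peak within 500 bp of either end, so 6 of 7 is close to what most genes show. Genes of the members' own lengths had one more often still, in 81.2 to 83.8% of cases (genes within 1.5 times the length of each member). In 5 of the 6 genes a single end was open, and 1 of the 7 members, Kdm1a, had a peak at both ends, against 18.2% of protein-coding genes.

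**Figure D1:**
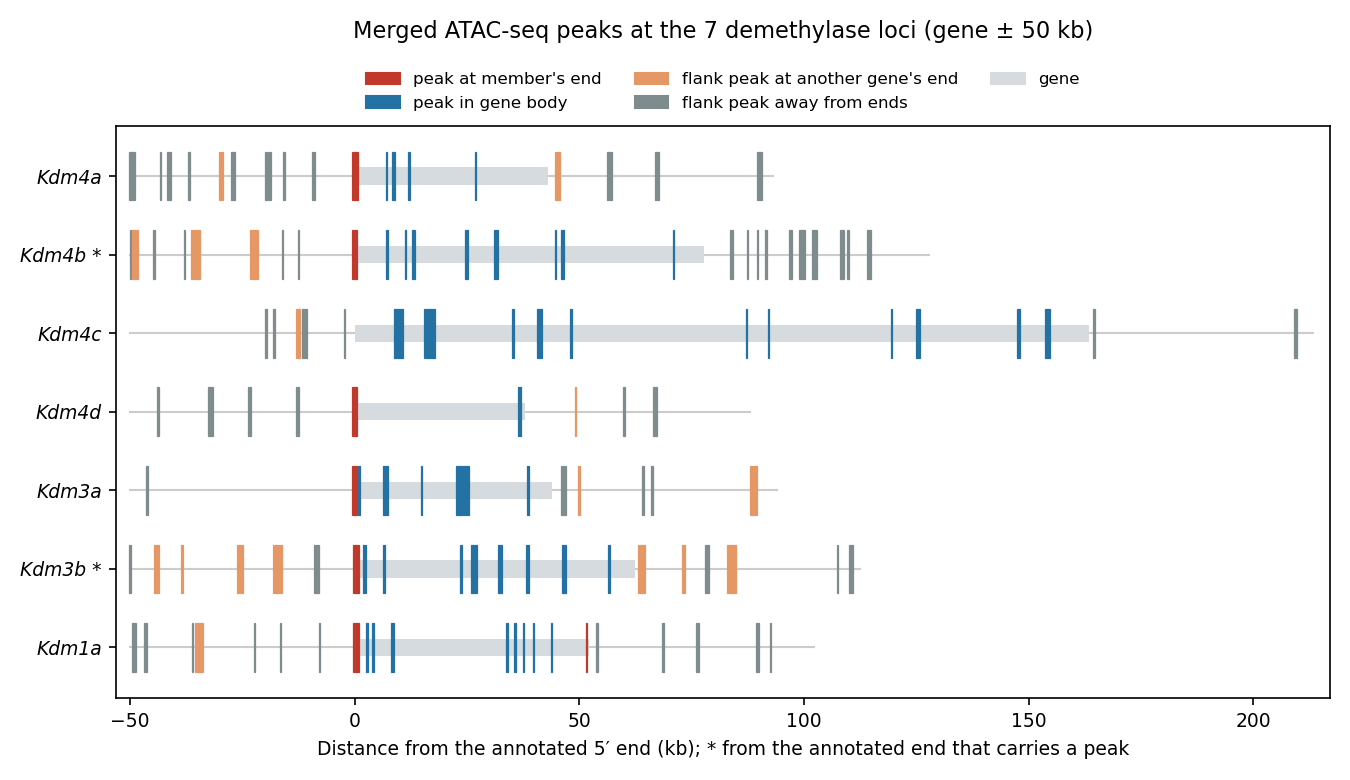
Each row is 1 gene (grey bar) with 50 kb on both sides, and coloured blocks are merged ATAC-seq peaks drawn to scale with a thin outline; the x axis is distance in kb from the annotated 5′ end, or, for Kdm4b and Kdm3b (*), from the annotated end that carries a peak. Of the 132 peaks, 7 lie at an end of a member (red), 46 elsewhere in a member's body (blue), 18 in the flanks at an end of another gene (orange) and 61 elsewhere in the flanks (grey). Most of the Kdm4d body is empty.

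In the Kdm4 family 3 genes were open at 1 annotated end and Kdm4c at none. Kdm4a (chromosome 4, 118136957 to 118180090, minus strand, 43.1 kb) was covered at its 5′ end by a peak of 1336 bp at 118179417 to 118180752, which reached 709 bp upstream and 626 bp downstream of the RefSeq start. Kdm4b (chromosome 17, 56325970 to 56403774, 77.8 kb) had a peak of 1073 bp at 56325389 to 56326461 across its lower-coordinate end. At the other ends of the 2 genes the nearest peaks lay 1.39 and 5.80 kb away, both outside the gene.

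Kdm4c (chromosome 4, 74242497 to 74405864, plus strand, 163 kb) is the longest member, and its outermost annotated start was closed. The nearest peak to that start lay 2.12 kb upstream and was 301 bp wide, and the nearest to the other end lay 1.01 kb beyond it. A RefSeq start 9.38 kb inside the gene, in contrast, lay under a peak of 1911 bp at 74251279 to 74253189, which reached 600 bp upstream and 1310 bp downstream of it. It was wider than 97.7% of all peaks in the list. The gene thus had no peak at an annotated end but 1 over an internal annotated start. Of the 2 members with more than 1 promoter window, Kdm4c was the 1 that had both open and closed ones, against 31.3% of 2761 such protein-coding genes. A closed outermost window with an open inner one, as in Kdm4c, was found in 9.96% of them.

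A second wide peak followed in Kdm4c. It covered 2535 bp at 74257908 to 74260442, began 4718 bases after the end of the peak over the internal start, and overlapped no RefSeq start of the gene in the table. It was the widest of the 132 peaks and wider than 99.9% of the 67530 peaks that lie in protein-coding gene bodies away from gene ends. The 9 further body peaks of Kdm4c were 209 to 1085 bp wide, and a stretch of 38.6 kb in mid-gene (74290909 to 74329553) held none.

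Kdm4d (chromosome 9, 14462548 to 14500522, minus strand, 38.0 kb) had a peak of 1175 bp at 14499982 to 14501156 over its 5′ end. That peak cannot be assigned to Kdm4d alone. Cwc15, a gene of the splicing machinery on the other strand (chromosome 9, 14500604 to 14510620), begins 82 bp beyond the annotated end of Kdm4d, and the RefSeq starts of the 2 genes are 137 bp apart, so the Kdm4d window printed above holds both. It was the 1 of 6 members with an end peak that shared it in this way, whereas 37% of protein-coding genes with an end peak had one that also lay within 500 bp of an end of another gene. Inside Kdm4d, 35.8 kb without a peak (14464136 to 14499981, 94.4% of the gene) separated this peak from the single other body peak, 616 bp wide and 0.972 kb from the 3′ end. A peak of 349 bp lay over the related pseudogene Kdm4dl in the flank. The labels do not tell how reads that match both copies were placed, so peaks in these copies are uncertain.

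**Figure D2:**
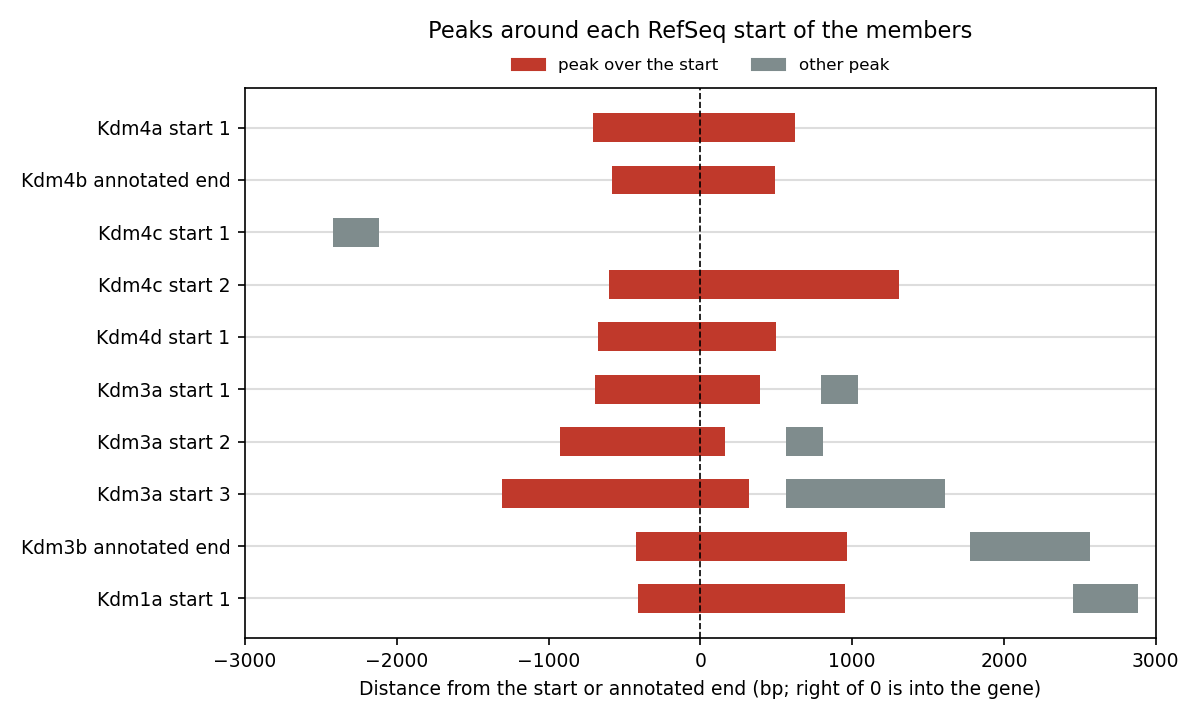
Peaks within 3000 bp of each RefSeq start of the members, or of the annotated end with a peak for Kdm4b and Kdm3b; the x axis is distance in bp, positive into the gene, and red blocks are peaks that cover the start. The outermost Kdm4c start has only a peak of 301 bp upstream of it, while the internal starts of Kdm4c and Kdm3a lie under peaks of 1911 and 1630 bp.

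The Kdm3 pair was open at 1 annotated end each and in mid-gene. Kdm3a (chromosome 6, 71588970 to 71632990, minus strand, 44.0 kb) had a peak of 1087 bp at 71632525 to 71633611 that covered 2 RefSeq starts, 73 and 304 bp inside the annotated end. Its start 3, 23.9 kb inside the gene, lay under a peak of 1630 bp at 71608817 to 71610446. A peak of 1050 bp followed 242 bases further into the gene, and the pair spanned 2.92 kb. All 3 starts of Kdm3a were therefore open. Upstream of the gene, 45.2 kb (71633612 to 71678857) held no peak, the longest empty stretch in the 7 loci.

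Kdm3b (chromosome 18, 34777008 to 34839370, 62.4 kb) had a peak of 1386 bp at 34776587 to 34777972 across its lower-coordinate end and another of 794 bp that began 1777 bp inside the gene. Its 8 body peaks away from the ends were 281 to 1382 bp wide, and 5 of them were wider than 578 bp, the median of the whole list. Its neighbour Reep2, a gene of endoplasmic reticulum shaping (34840589 to 34847463), begins 1.22 kb beyond the far end, and the peak of 1647 bp nearest to that end lay at Reep2. Of the 22 peaks of the locus 8 lay at an end of another gene, the highest number among the members. They included a peak of 2008 bp at Egr1, an immediate early transcription factor gene.

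Kdm1a (chromosome 4, 136550533 to 136602787, minus strand, 52.3 kb) had a peak of 1369 bp at 136601767 to 136603135 over its 5′ end, with 412 bp upstream and 956 bp downstream of the RefSeq start. The peak at its other end was 221 bp wide and began 460 bp inside the gene. Of all peaks in the list, 3.08% were narrower than that. The stretch also belongs to Luzp1, which overlaps the end of Kdm1a (136462609 to 136554725), so this peak cannot be assigned to either gene. The body of Kdm1a held 8 further peaks of 201 to 699 bp, of which 1 was wider than 578 bp. They lay in a group of 3 near the 5′ end and a group of 5 towards the 3′ end, with 25.0 kb without a peak between them.

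The peaks over the 5′ or lower-coordinate ends were of ordinary width. They measured 1336 bp in Kdm4a, 1073 in Kdm4b, 1175 in Kdm4d, 1087 in Kdm3a, 1386 in Kdm3b and 1369 in Kdm1a, against a median of 1326 bp and quartiles of 1027 and 1678 bp for the widest end peak of each of 15550 protein-coding genes. All 6 lay between those quartiles. The peak over the internal Kdm4c start (1911 bp) lay above the upper quartile, as a comparison of a start with annotated ends.

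Base content differed between the windows of open and closed starts, with 1 exception among the members. Of the 8 windows 7 lay wholly under a peak and 1, the outermost of Kdm4c, had none, whereas 67.9% of windows of protein-coding genes were overlapped by a peak and 58.9% lay wholly under peaks. The closed Kdm4c window had a GC content of 40.0% and no CpG site, and its internal window 64.7% and 28 CpG sites. Windows across protein-coding genes had a median of 20 CpG sites where a peak overlapped and 2 where none did. The windows of Kdm4a, Kdm4d, Kdm1a and starts 1 and 2 of Kdm3a held 13, 17, 29, 24 and 40 sites.

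The exception was the internal start of Kdm3a. Its window, start 3 above, was wholly under the peak of 1630 bp, yet it held no CpG site at a GC content of 49.0%. Of 984 promoter windows of protein-coding genes with no CpG site, 4.47% were overlapped by a peak. Start 3 of Kdm3a was thus of the same CpG class as the closed Kdm4c start and was open.

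**Figure D3:**
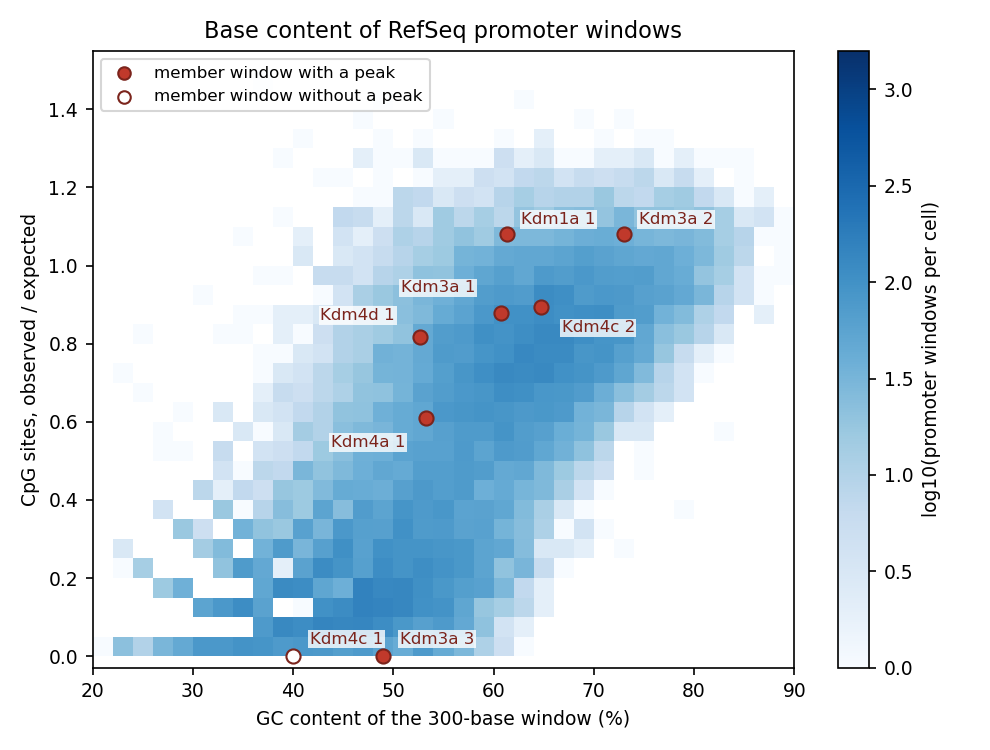
GC content (x axis, %) and observed over expected CpG sites (y axis) of the 300-base RefSeq promoter windows; blue cells count the windows of protein-coding genes on a log10 scale and circles are the members, filled where a peak overlaps. The closed Kdm4c start 1 (40.0% GC) and the open Kdm3a start 3 (49.0% GC) both sit at a ratio of 0, and the other 6 windows range from 0.610 to 1.08.

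The motif matches differed between the members' windows. The hypoxia response core ACGTG was found in 1 of the 8 windows, the internal one of Kdm4c, against 20.9% of windows of protein-coding genes. It matched there at 2 places, 84 and 52 bases before the start, each inside the palindrome CACGTG. That run reads the same on both strands, so the 4 matches are 2 overlapping pairs. The hypoxia name belongs only to the letters searched, and a response of Kdm4c to low oxygen was not tested. The related core GCGTG was found in 3 windows, those of Kdm4c start 2, Kdm3a start 1 and Kdm1a, against 38.5% of windows. GC boxes (GGGCGG) occurred in 4 windows (46.2% of all windows), with 4 matches in start 2 and 3 in start 1 of Kdm3a. The match at position 25 from start 1 and that at position -207 from start 2 are the same bases, since these windows overlap. CCAAT boxes (CCAAT) occurred in 4 windows (38.2% of all), which include Kdm4a, whose only match this was. Because 7 of the 8 windows lay under a peak, windows with a peak are the closer background, and there the shares were 25.1% for ACGTG, 51.2% for GCGTG, 64.6% for GC boxes and 37.8% for CCAAT boxes.

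The ETS core CCGGAAG matched in 2 windows, Kdm4d (2 matches) and Kdm3a start 2, against 11.6% of all windows and 16.3% of those with a peak. In Kdm4d both matches lay upstream of its start, 146 and 90 bases before it, and so on the side of Cwc15. The YY1 core ATGGCGG, the cyclic AMP element TGACGTC, the NRF1 letters GCATGCG, the octamer letters ATGCAAA and the TATA box TATAAA matched in none of the 8 windows. In that order they occurred in 5.25, 3.84, 4.44, 4.23 and 12.6% of all windows. Among windows with a peak the shares were 7.42, 5.16, 6.06, 3.53 and 6.6%. The 2 windows without any match were Kdm4c start 1 and Kdm3a start 3. A match is a run of letters and no test of a factor, and a window without one says nothing of the factor.

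Kdm1a held the densest peaks, 10 midpoints or 19.1 per 100 kb of gene, followed by Kdm3b with 9 (14.4), Kdm3a with 6 (13.6), Kdm4a with 5 (11.6), Kdm4b with 8 (10.3), Kdm4c with 11 (6.73) and Kdm4d with 1 (2.63). The members' median was 11.6 per 100 kb against 9.53 over all protein-coding genes, and 5 of the 7 members lay above the median of all genes. Among genes within 1.5 times its length, 88.6% had a lower density than Kdm1a and 9.52% a lower one than Kdm4d. Kdm4c, with fewer peaks per 100 kb than most members, lay at the middle of its own length class, where 49.0% of genes were lower.

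The order of the 2 medians turned with some ways of counting and held with others. With only peaks wider than 578 bp counted, the members' median was 3.86 per 100 kb against 4.60 over all genes, and with peaks counted by overlap instead of midpoint it was 11.59 against 11.61. The members' median stayed higher with 2 kb left out at both ends of each gene (10.8 against 6.66). It also stayed higher with peaks less than 200 bp apart joined (11.6 against 9.48). Of the 46 body peaks away from the members' ends 19 were wider than 578 bp, against 45% of such peaks in all protein-coding genes. Kdm1a, the densest member with peaks of all widths counted, had 1 wide peak among 8, and Kdm3b 5 among 8. The order of the members moved as well. By overlap Kdm3a (15.9 per 100 kb) passed Kdm3b (14.4), and without 2 kb at both ends Kdm4b (10.8) passed Kdm4a (10.2). With only peaks wider than 578 bp, Kdm3b was highest (9.62) and Kdm1a (3.83) lay below the median of all genes.

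**Figure D4:**
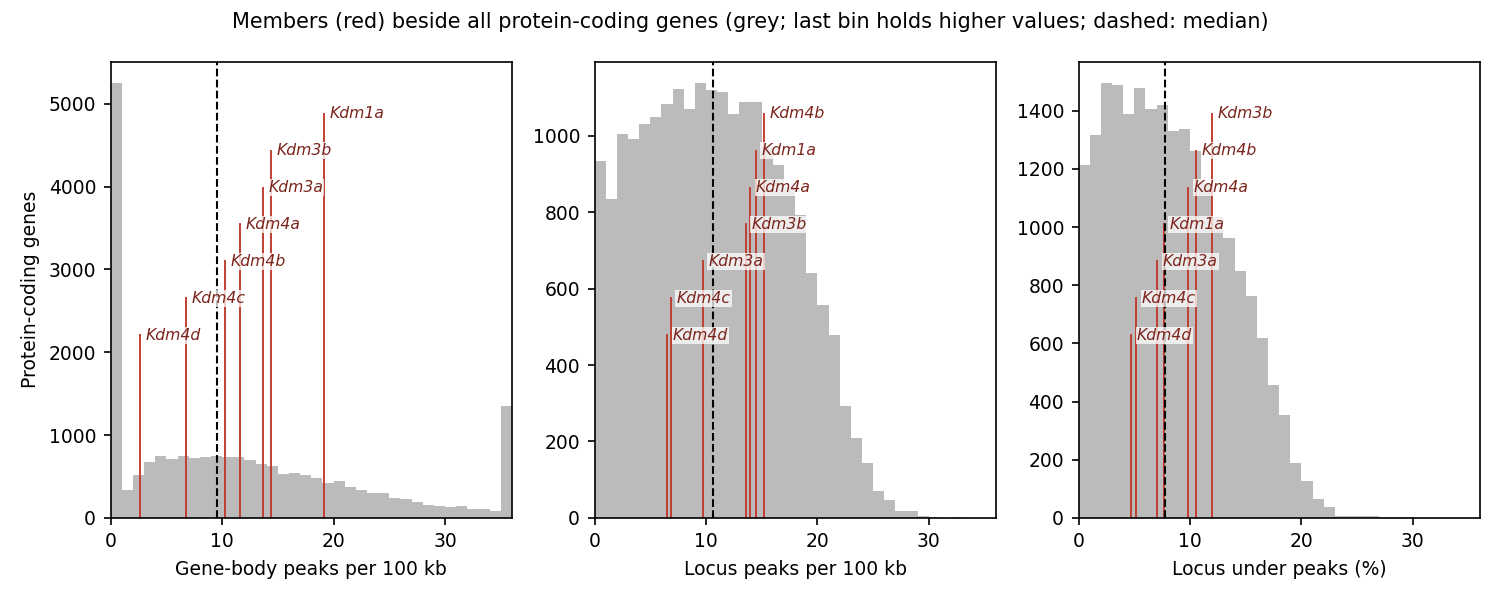
The 7 members (red lines with names; line height only spaces the names) beside 21774 protein-coding genes (grey bars, number of genes, the last bar holding all higher values; dashed line, median) for body peaks per 100 kb, locus peaks per 100 kb and percent of the locus under peaks. Kdm1a is highest for body density at 19.1, Kdm4b for locus density at 15.2 and Kdm3b for covered share at 12.0%, and Kdm4d is lowest in all 3 panels.

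Over whole loci, with 50 kb on both sides, the members lay on both sides of the median of all genes. Kdm4b (27 peaks, 15.2 per 100 kb), Kdm1a (22, 14.4), Kdm4a (20, 14.0) and Kdm3b (22, 13.5) were above that median, 10.6 per 100 kb. Kdm3a (14 peaks, 9.72), Kdm4c (18, 6.83) and Kdm4d (9, 6.52) lay below it. The side changed for Kdm3a with flanks of 25 kb (12.8 against 10.8 per 100 kb over all genes) and for Kdm1a with only peaks wider than 578 bp (5.25 against 5.58). Surroundings differed along with these values. In the order of members above, the flanks held 3, 1, 2, 8, 2, 1 and 1 peaks at ends of other genes. The end peak that Kdm4d shares with Cwc15 is not in that count. The part of such peaks in the densities was not tested. Beside Kdm4b lies Uhrf1, which encodes a partner of the maintenance DNA methyltransferase, 2.48 kb away with a peak of 1728 bp at its far end. The nearest protein-coding gene on the high side of Kdm4c, Dmac1, lies 871 kb away.

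The share of each locus under peaks gave another order. Kdm3b was highest, with 12.0% of its 162 kb under peaks, followed by Kdm4b (10.6%), Kdm4a (9.86%), Kdm1a (7.65%), Kdm3a (7.07%), Kdm4c (5.18%) and Kdm4d (4.72%). Across all protein-coding genes the median was 7.76%, above which 3 of the 7 members lay. With flanks of 25 kb Kdm3a was also above the median of all genes (8.58% against 8.01%), and with flanks of 100 kb Kdm1a was (8.47% against 7.49%). With flanks of 50 kb Kdm1a stood above the median of all genes by count and just below it by covered share, and its peaks had the lowest median width of the 7 loci, 424 bp, while those of Kdm3b had the highest, 882 bp. The median width over the 132 peaks was 605 bp.

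In the 5 members whose strand was known, 12 of 33 body midpoints (36.4%) lay in the 5′-most of 4 equal parts of the gene, against 29.4% of 55404 peaks in 7948 protein-coding genes of at least 20 kb. The other parts, in order, held 12.1, 27.3 and 24.2%, against 23.0, 22.7 and 24.9%. Midpoints of the 5′-end peaks of Kdm4a and Kdm1a, 0.006 and 0.336 kb inside the gene, were counted in the 5′-most part. Kdm1a had 4 of its 10 there and Kdm4a 3 of its 5. Kdm4c spread its 11 over the 4 parts as 3, 2, 3 and 3, and the 1 body midpoint of Kdm4d lay in the last.

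Related gene lists are given beside the members as a description, with no test between lists. Among demethylase genes, 6 of the 7 members and 15 of 18 other JmjC and LSD-type demethylases were open at an end. The share over all protein-coding genes was 71.4%. The 7 members are not the whole class of H3K9 demethylases, since the list of 18 also holds Jmjd1c of the Kdm3 family. Both ends were open in 1 of those 7 and 8 of those 18 genes, against 18.2% of all. The other demethylases without an end peak were Kdm6a on the X chromosome, a demethylase of H3 lysine 27, whose nearest peak lay 0.770 kb from an end, and the Y-linked Kdm5d and Uty, at 17.8 and 34.9 kb. All 9 H3K9 methyltransferase genes and all 10 LSD1 partner genes had an end peak. Jmjd1c, the third member of the Kdm3 family, had 40 peaks in its locus (15.4 per 100 kb) and 23 midpoints in its body (14.4 per 100 kb), beside body densities of 14.4 in Kdm3b and 13.6 in Kdm3a. Kdm1b, the paralogue of Kdm1a, had 16.7 body peaks per 100 kb. Median locus densities were 13.5 per 100 kb for the 7 members, 10.6 for the other demethylases, 11.2 for the methyltransferases and 13.9 for the LSD1 partners.

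**Figure D5:**
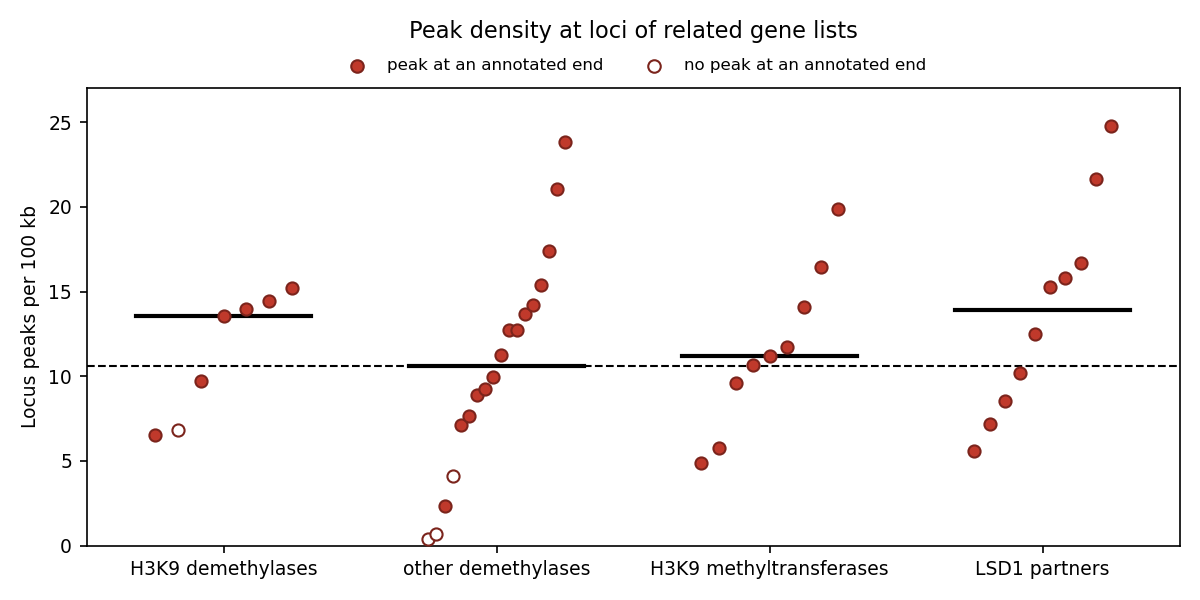
Peaks per 100 kb of locus (gene and 50 kb on both sides, y axis) for each gene of 4 lists, ordered by value within a list; filled circles have a peak at an annotated end, bars are list medians and the dashed line is the median of all protein-coding genes, 10.6. The 7 members, drawn as the H3K9 demethylases, lie between 6.52 and 15.2, inside the range of each other list. The other demethylases were not sorted by the lysine they act on, and Jmjd1c of the Kdm3 family is drawn among them.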

How the data were processed

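The 18 libraries were grouped by the time in the labels. MACS2 2.2.7.1, Bowtie2 2.4.2 and Trimmomatic 0.36 are listed in the submitters' processing notes, as are the builds GRCm38 and mm10. The peak threshold and the way of merging were not given in the sources used. The deposited list holds start and end positions of 166066 peaks, with no column per sample, so no test was run. Starts were converted to 1-based positions. Genes came from the RefSeq table of GRCm38.p6, without 348 rows that carry scaffold coordinates, and promoter windows and strand from RefSeq sequences of the same build, held for 5 of the 7 genes. An end counted as open where a peak overlapped 500 bp either side by at least 1 bp. Body peaks were counted by midpoint and locus peaks by overlap. Exons and introns were not told apart. Named genes were the members, genes overlapping them or sharing an end peak, their nearest protein-coding neighbours, and list genes without an end peak; Egr1, Kdm4dl, Jmjd1c, Kdm1b, Pou5f1, Nanog and Sox2 fall outside this rule and were named after their values were seen. Members and lists were chosen with earlier results of these data known. The interval functions were also run on simulated data with known answers, without a rule for passing, and the outcome is not given here. Python 3.11.15, numpy 2.4.6, pandas 2.3.3 and matplotlib 3.10.9 were used.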

Additional observations from a re-analysis of the deposited data

How the results depend on the processing

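No value has a replicate error, since the list merges all libraries. The number of members with a peak at an end was 6 with windows of 250 bp, against 68.8% of all protein-coding genes. It was also 6 with an overlap of at least 200 bp (69.4% of genes) or only peaks wider than the median (66.7%). It was 7 with windows of 2000 bp, where the share over all protein-coding genes was 79.7%. The peak thereby taken in at Kdm4c lay 1.01 kb beyond its 3′ end. The peak 2.12 kb upstream of its outermost start stayed outside the window. With RefSeq starts in place of annotated ends, an alternative chosen after seeing the data, all 5 genes in the promoter table had a peak, against 70.9% of protein-coding genes. The count of 7 open promoter windows was the same under all 3 alternatives. The shares over all windows of protein-coding genes were 65.2% with an overlap of at least 150 bp and 58.9% for the whole window. That share was 64.7% with only peaks wider than the median. With only peaks wider than the median, a setting that drops narrow peaks by construction, the members' median was below that of all protein-coding genes in locus density (5.25 against 5.58 per 100 kb) and body density (3.86 against 4.60 per 100 kb). Their median covered share, below that of all genes with flanks of 50 kb, was above it with flanks of 25 kb (8.58% against 8.01%) and 100 kb (8.47% against 7.49%). Of 84 densities and shares of single members under the alternatives, 71 stayed within 1.5 times; 11 of the 13 others came from wide peaks alone, and the other two were the body density of Kdm4d, 5.27 per 100 kb by overlap and 0 without 2 kb at both ends. Leaving out replicates could not be run on a merged list. No paired analysis was possible because the list carries no value per library.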
